A study of Mus musculus with 12 samples.

Results

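The genes described here are 55 mouse genes of mitosis and cytokinesis, measured in thalamus that lacks the homeobox gene Gbx2 and in wild-type thalamus. They were taken by name from a list of cell division genes, chosen with earlier results of these data known. Their excess over the shares of all genes is therefore a description and not a test of the list. Probes paired between the array chips, and all probes of chip 2, were used where they carried a current or earlier symbol of a member. Cdc2a was read as Cdk1, for example. Of the 55 members, 49 had a probe paired between the chips, among 23397 genes that did. The other 6 had named probes on chip 2, and whether chip 1 holds unpaired probes of them was not looked up. The tissue was dissected from the diencephalon of E12.5 embryos of the CD1 stock, and its RNA was read on 12 Illumina arrays. The Gbx2 knockout (KO) thalamus has 4 kept arrays, replicates 1 to 4, and a replicate 5 that the labels exclude as an outlier. WT epithalamus and WT prethalamus have 1 array each. The wild-type (WT) thalamus likewise has 4 kept arrays and an excluded replicate 5. Chip 1 holds replicates 1 and 2 of both genotypes and the epithalamus and prethalamus arrays, and chip 2 holds replicates 3, 4 and 5 of both genotypes. The labels give the genotypes as KO and WT with no allele, and do not tell single embryos from pools. The p-values therefore cover only the spread between these samples, which may be technical.

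Mitosis divides duplicated chromosomes between daughter cells, and cytokinesis then splits the cytoplasm. Entry is driven by cyclin B with the kinase Cdk1, condensins compact the chromosomes, the spindle checkpoint holds the cell until kinetochores are attached, and the anaphase promoting complex then releases the sister chromatids. In the embryonic diencephalon the dividing cells are progenitors of the ventricular zone, while the neurons they give rise to no longer divide, so these transcripts are commonly read as marks of cycling progenitors.

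Gbx2 itself was checked first. Its log2 intensity was 13.04 and 12.77 on KO replicates 1 and 2, against 13.73 and 13.30 on WT replicates 1 and 2, while KO replicates 3 and 4 read 13.75 and 14.04, against 15.95 and 15.75 on WT replicates 3 and 4. It was lower in the KO on each chip (log2 fold change -1.29, SE 0.27, limma adjusted p = 0.0406, n = 4 per genotype), yet stayed bright there; whether its probe lies in the deleted stretch is not known here. The excluded replicates followed their labels at this probe, with 13.69 on KO replicate 5 and 15.18 on WT replicate 5. Chip 2 detected more of its probes (44.8% to 46.4% per array) than chip 1 did (30.7% to 36.04%).

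In each role of mitosis and cytokinesis that could be tested, most genes had higher values in KO thalamus than in WT, though only a part of them passed the test one by one. Of the 55 members, 39 had a probe on both chips that passed the detection filter, and 13 of these were higher in the KO at an adjusted p under 0.05 (limma, Benjamini-Hochberg over 10396 genes), against 1.4% of all genes tested (2.89% were called in either direction). They were Cdca3, Birc5, Kif22, Spc24, Ect2, Cdca8, Cdc25c, Kif2c, Top2a, Cenpf, Incenp, Shcbp1 and Smc4, by 0.93 to 1.89 on the log2 scale. No member was lower at that threshold, or at an unadjusted p under 0.05 (0 of 39), while 31 were higher at an unadjusted p under 0.05, against 10.1% of all genes. The log2 fold change was positive for 37 of the 39, with a median of 0.999, against -0.02 over all genes tested. In tissue RNA, more dividing cells and more transcript per dividing cell cannot be told apart.

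The count of members called rests on which arrays are in the fit. It was 1 without KO replicate 1, KO replicate 2, WT replicate 3 or WT replicate 4, 2 without KO replicate 4 or WT replicate 2, 4 without KO replicate 3, and 31 without WT replicate 1. The share of all genes called higher moved too. It was 0.144% without KO replicate 1 or WT replicate 4, 0.269% without KO replicate 2 and 0.337% without WT replicate 3. Without KO replicate 4 it was 0.25%, without WT replicate 2 0.308%, without KO replicate 3 0.558% and without WT replicate 1 3.16%. Cdca3 was called in all 8 of these fits and Birc5 in 4. With the excluded replicate 5 arrays put back, the count of members called was 0, and 0.077% of all genes were called higher. Even so, 37 of 39 member values stayed positive, and 2 had an unadjusted p under 0.05.

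**Figure D1:**
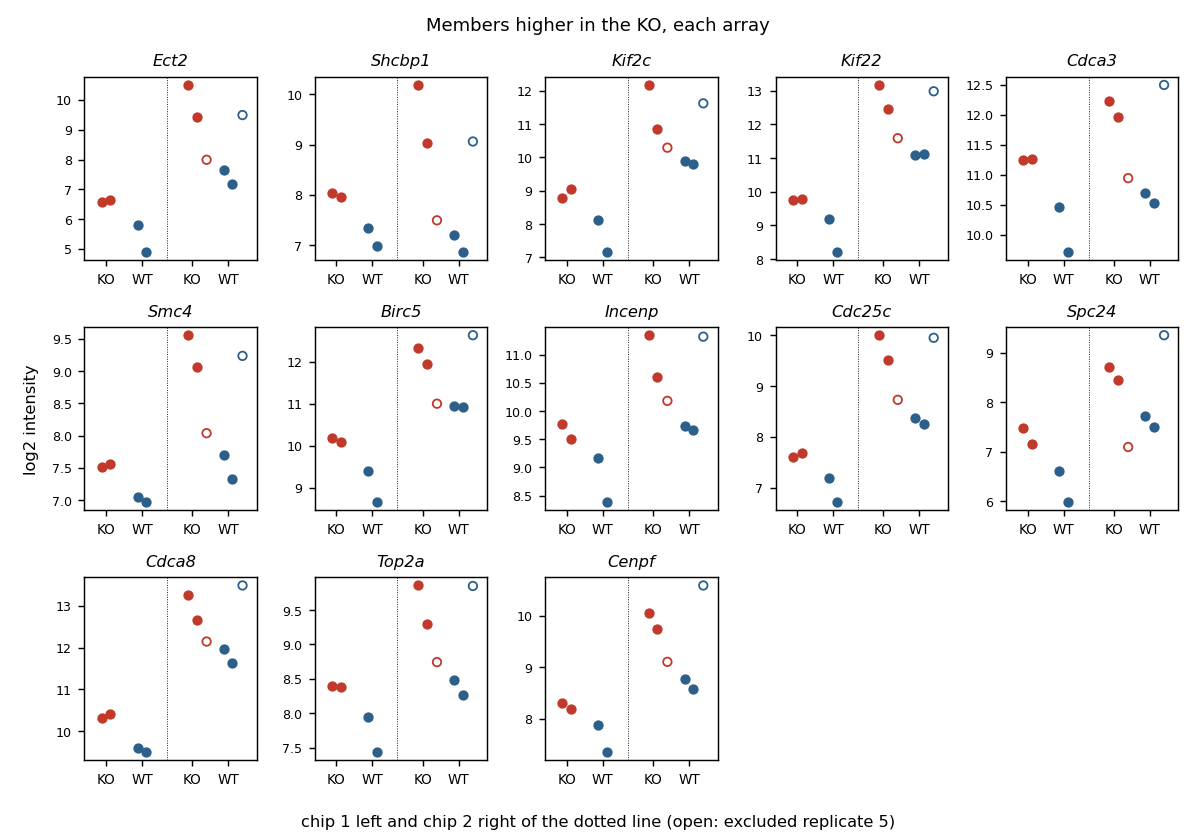
Log2 intensity (vertical axis, own scale for each gene) of the 13 members higher in the KO, on the KO and WT thalamus arrays of chip 1 (left of the dotted line) and chip 2 (right). Each filled point is 1 kept array and each open point an excluded replicate 5; on both chips every kept KO array lies above every kept WT array, while the open WT point lies high and the open KO point low.

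Promoters were read to see what else the members share. Promoters of mitotic genes commonly hold a cell cycle genes homology region (CHR, TTTGAA or TTCGAA), bound by the MuvB core of the DREAM and B-Myb complexes, together with CCAAT boxes bound by NF-Y. The sequences below, from RefSeq on build GRCm38.p6, belong to 5 called members with a CHR match in the promoter table, those whose smaller chip difference was largest, and run from 150 bases before the annotated start to 30 after it, 5′ to 3′ on the gene's strand; capitals mark matches to the CHR or to CCAAT on either strand, and in Cdca3 the CHR match lies just past the printed stretch.
Kif2c, chr4:117178743-117178922, minus strand: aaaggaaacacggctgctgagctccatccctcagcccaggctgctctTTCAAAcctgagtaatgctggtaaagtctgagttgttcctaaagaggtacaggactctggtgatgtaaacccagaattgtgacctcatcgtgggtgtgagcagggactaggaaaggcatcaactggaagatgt
Ect2, chr3:27153825-27154004, minus strand: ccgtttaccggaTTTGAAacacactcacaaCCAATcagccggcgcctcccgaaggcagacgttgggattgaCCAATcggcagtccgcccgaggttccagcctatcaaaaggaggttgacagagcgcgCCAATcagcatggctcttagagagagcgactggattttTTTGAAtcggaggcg
Cdca3, chr6:124830026-124830205, plus strand: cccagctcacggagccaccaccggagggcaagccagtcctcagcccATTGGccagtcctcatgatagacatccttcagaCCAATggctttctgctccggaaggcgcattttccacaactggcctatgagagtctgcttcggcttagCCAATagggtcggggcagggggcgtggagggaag
Kif22, chr7:127042391-127042570, minus strand: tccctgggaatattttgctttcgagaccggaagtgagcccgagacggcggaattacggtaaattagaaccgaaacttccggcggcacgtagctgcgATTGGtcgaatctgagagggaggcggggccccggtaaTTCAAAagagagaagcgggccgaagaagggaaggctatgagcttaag
Cdca8, chr4:124936888-124937067, minus strand: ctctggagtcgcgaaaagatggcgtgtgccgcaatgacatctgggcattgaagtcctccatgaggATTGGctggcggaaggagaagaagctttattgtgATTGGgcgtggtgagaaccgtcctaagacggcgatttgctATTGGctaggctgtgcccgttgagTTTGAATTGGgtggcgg

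The table held 49 promoters of 46 members, each from 250 bases before to 50 after the start. A CHR match on either strand was present in 38 of the 49 (77.6%), against 19.2% of 32851 mouse promoters of the same length. It lay within the 50 bases before the start or after it in 71.4% of member promoters, against 5.3% of all. A CCAAT match was present in 73.5%, against 37.4%, and both motifs in 67.3%, against 7.5%. In 1 member promoter, that of Cdca8, the matches of the motifs shared bases. The E2F letters searched, TTT then CC, GG, CG or GC then CGC on either strand, were in 4.1% of member promoters and 2.3% of all. Tested members with a CHR match had a median log2 fold change of 0.98 (24 genes, 7 of them called), those without one 0.89 (7 genes, 1 called), and those whose promoter was not in the table, a median of 1.06 (8 genes, 5 called). The 7 without a match in this window were Birc5, Ccnb1, Mad2l1, Melk, Ncaph, Nusap1 and Plk4. A match is a run of letters and not a measured binding site.

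Among the kinases, cyclins and phosphatases of mitotic entry, 2 of 8 tested members rose, against 1.4% of all genes tested. Cdca3, an adaptor that promotes the destruction of the mitotic inhibitor Wee1, read 11.24 and 11.27 on KO replicates 1 and 2, against 10.45 and 9.72 on WT replicates 1 and 2. On chip 2 it read 12.23 and 11.96 on KO replicates 3 and 4, against 10.69 and 10.52 on WT replicates 3 and 4. The KO arrays lay above the WT arrays on both chips with no overlap, a 2.51-fold difference (log2 1.33, SE 0.19, limma adjusted p = 0.0115). Cdc25c, a phosphatase that activates Cdk1, read 7.60 and 7.68 on KO replicates 1 and 2, against 7.19 and 6.72 on WT replicates 1 and 2, while KO replicates 3 and 4 read 9.9995 and 9.51, against 8.38 and 8.25 on WT replicates 3 and 4. These groups did not overlap either (log2 1.06, SE 0.21, limma adjusted p = 0.0338).

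The other 6 tested entry genes did not pass. The largest value was that of Melk, a leucine zipper kinase of proliferating cells, with 6.75 and 6.64 on KO replicates 1 and 2, against 6.32 and 5.59 on WT replicates 1 and 2, while KO replicates 3 and 4 read 11.03 and 9.18, against 8.02 and 7.37 on WT replicates 3 and 4. Here too no KO array fell into the range of WT, but KO replicates 3 and 4 lay far apart (log2 1.57, SE 0.45, limma adjusted p = 0.0982). The mitotic kinase Plk1 stood at 1.08, Cdk1 at 0.90 and cyclin B1 (Ccnb1) at 0.68, with adjusted p values of 0.131, 0.0913 and 0.193 (limma). The smallest value was 0.32, for the phosphatase Cdc25b, whose probe was detected on the arrays of chip 1 and on none of those kept on chip 2, where another probe, detected on all 4 kept arrays, was at 0.65. Cyclin A2 (Ccna2) was at 0.55 with an SE of 0.51, since WT replicate 1 read 7.15 and WT replicate 2 read 4.76, on either side of 5.67 and 5.61 on KO replicates 1 and 2.

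Of the 6 genes that shape chromosomes, 2 rose, Top2a and Smc4, against 1.4% of all genes tested. Top2a, the topoisomerase that untangles sister DNA, read 8.40 and 8.39 on KO replicates 1 and 2, against 7.94 and 7.43 on WT replicates 1 and 2, while KO replicates 3 and 4 read 9.86 and 9.30, against 8.49 and 8.26 on WT replicates 3 and 4 (log2 0.96, SE 0.20, limma adjusted p = 0.0380). Smc4, an ATPase subunit of condensin, read 7.52 and 7.56 on KO replicates 1 and 2, against 7.04 and 6.97 on WT replicates 1 and 2, while KO replicates 3 and 4 read 9.56 and 9.06, against 7.69 and 7.33 on WT replicates 3 and 4 (log2 1.16, SE 0.26, limma adjusted p = 0.0499). Both were separated on each chip, and the adjusted p of Smc4 lay just inside the threshold.

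The other condensin genes and the proliferation antigen Mki67 did not pass. Ncaph read 8.40 and 8.45 on KO replicates 1 and 2, against 8.24 and 7.10 on WT replicates 1 and 2, while KO replicates 3 and 4 read 11.92 and 11.02, against 9.55 and 9.25 on WT replicates 3 and 4 (log2 1.41, SE 0.35, limma adjusted p = 0.0650). Mki67, the Ki-67 protein that coats mitotic chromosomes, was at 1.22 (adjusted p = 0.0629, limma). The condensin ATPase gene Smc2 differed between chips, at -0.06 on chip 1 and 2.02 on chip 2. Ncapg had the only negative value of the role, with 6.13 and 5.96 on KO replicates 1 and 2, against 6.59 and 6.11 on WT replicates 1 and 2, while KO replicates 3 and 4 read 7.64 and 7.36, against 7.10 and 7.75 on WT replicates 3 and 4 (log2 -0.12, SE 0.20, limma adjusted p = 0.784). Another Ncapg probe gave a different value, described with the probes.

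None of the 4 tested spindle checkpoint genes passed (0 of 4 by limma at adjusted p under 0.05). Bub1b, which encodes the checkpoint protein BubR1, came nearest, with 8.98 and 9.06 on KO replicates 1 and 2, against 8.81 and 7.68 on WT replicates 1 and 2, while KO replicates 3 and 4 read 12.497 and 11.74, against 10.38 and 10.45 on WT replicates 3 and 4 (log2 1.24, SE 0.30, limma unadjusted p = 0.00203 and adjusted p = 0.0606). The groups were separated on both chips. The Mad2 gene Mad2l1 was at 0.63 and Bub3 at 0.25. The checkpoint kinase gene Ttk was at -0.04 (SE 0.33). It read 4.92 and 5.06 on KO replicates 1 and 2, against 5.85 and 4.77 on WT replicates 1 and 2. On KO replicates 3 and 4 it read 7.32 and 6.50, against 6.10 and 7.25 on WT replicates 3 and 4. Its groups overlapped on both chips, but its probe was detected on only 5 of the 8 arrays. These include the 4 kept arrays of chip 2, so its chip 1 values lie largely at background.

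By the probes used, the chromosomal passenger complex was the most even role. Of its 4 subunits 3 rose, against 1.4% of all genes tested, and all 4 were separated on both chips, against 10.3%. Birc5 (survivin), the targeting subunit, read 10.19 and 10.08 on KO replicates 1 and 2, against 9.40 and 8.67 on WT replicates 1 and 2, while KO replicates 3 and 4 read 12.32 and 11.94, against 10.95 and 10.93 on WT replicates 3 and 4 (log2 1.14, SE 0.19, limma adjusted p = 0.0192). Cdca8 (borealin) read 10.31 and 10.40 on KO replicates 1 and 2, against 9.60 and 9.50 on WT replicates 1 and 2, while KO replicates 3 and 4 read 13.26 and 12.67, against 11.95 and 11.63 on WT replicates 3 and 4 (log2 0.99, SE 0.18, limma adjusted p = 0.0258). Incenp, the scaffold, read 9.77 and 9.51 on KO replicates 1 and 2, against 9.17 and 8.39 on WT replicates 1 and 2, while KO replicates 3 and 4 read 11.35 and 10.61, against 9.73 and 9.67 on WT replicates 3 and 4 (log2 1.07, SE 0.23, limma adjusted p = 0.0433). Second probes, also detected on 8 of 8 arrays, were at 1.39 for Birc5 and 0.94 for Cdca8. By the probes used, the 4 subunits spanned 0.99 to 1.18 on the log2 scale. The highest was the kinase gene Aurkb, which did not pass (SE 0.29, limma adjusted p = 0.0643), with 8.17 and 7.9986 on KO replicates 1 and 2, against 7.84 and 6.603 on WT replicates 1 and 2, while KO replicates 3 and 4 read 11.88 and 11.15, against 10.10 and 9.95 on WT replicates 3 and 4.

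At the centromere and kinetochore, 2 of 4 tested members rose, against 1.4% of all genes tested. Spc24, a subunit of the Ndc80 complex that grips microtubules, read 7.49 and 7.16 on KO replicates 1 and 2, against 6.61 and 5.99 on WT replicates 1 and 2, while KO replicates 3 and 4 read 8.72 and 8.46, against 7.74 and 7.495 on WT replicates 3 and 4 (log2 0.999, SE 0.18, limma adjusted p = 0.0256). Cenpf, a large protein of the outer kinetochore, read 8.30 and 8.19 on KO replicates 1 and 2, against 7.88 and 7.35 on WT replicates 1 and 2, while KO replicates 3 and 4 read 10.06 and 9.74, against 8.78 and 8.57 on WT replicates 3 and 4 (log2 0.93, SE 0.20, limma adjusted p = 0.0402). Both were separated on each chip by the probes used. Another Spc24 probe, detected on all 4 kept arrays of chip 2, was at -0.11 there, against 0.98 for the probe used. Cenpa, the centromeric histone H3 variant, read 12.05 and 11.996 on KO replicates 1 and 2, against 11.99 and 10.88 on WT replicates 1 and 2, while KO replicates 3 and 4 read 14.74 and 14.34, against 13.74 and 13.52 on WT replicates 3 and 4 (log2 0.75, SE 0.24, limma adjusted p = 0.126), so that WT replicate 1 almost reached the KO arrays of its chip. Spc25, the partner of Spc24, was at 0.69 and did not pass.

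Of 8 tested genes of the spindle and centrosome, 2 rose, the kinesins Kif22 and Kif2c, against 1.4% of all genes tested. Kif22, a chromokinesin that pushes chromosome arms outwards, read 9.77 and 9.80 on KO replicates 1 and 2, against 9.18 and 8.23 on WT replicates 1 and 2, while KO replicates 3 and 4 read 13.17 and 12.45, against 11.10 and 11.11 on WT replicates 3 and 4 (2.63-fold, SE of log2 0.26, limma adjusted p = 0.0256). Kif2c, which depolymerises microtubules at kinetochores, read 8.78 and 9.05 on KO replicates 1 and 2, against 8.12 and 7.18 on WT replicates 1 and 2, while KO replicates 3 and 4 read 12.17 and 10.85, against 9.88 and 9.79 on WT replicates 3 and 4 (2.77-fold, SE of log2 0.30, limma adjusted p = 0.0371). Neither overlapped between genotypes on a chip. Among those that did not pass, Kif4, a chromokinesin that also builds the central spindle, had the largest value, with 9.11 and 9.09 on KO replicates 1 and 2, against 8.78 and 8.14 on WT replicates 1 and 2, while KO replicates 3 and 4 read 12.07 and 10.99, against 9.94 and 10.22 on WT replicates 3 and 4 (log2 1.04, SE 0.28, limma adjusted p = 0.0842). The microtubule binding gene Nusap1 was at 0.89, the Aurora A activator gene Tpx2 at 0.88, the spindle pole kinase gene Aurka at 0.77 and the centriole duplication kinase gene Plk4 at 0.58. Hmmr, at 0.04, was measured by a dim probe detected on 5 of the 8 arrays. The Plk4 probe was dim too, detected on 4 of the 8, of which 3 were KO and 1 WT.

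The cytokinesis genes had the highest median of the roles, 1.41 over 5 tested members. Of these 2 rose, Ect2 and Shcbp1, against 1.4% of all genes tested. Ect2, the exchange factor that activates RhoA at the cleavage furrow, read 6.56 and 6.65 on KO replicates 1 and 2, against 5.81 and 4.91 on WT replicates 1 and 2, while KO replicates 3 and 4 read 10.51 and 9.42, against 7.66 and 7.19 on WT replicates 3 and 4 (3.71-fold, SE of log2 0.34, limma adjusted p = 0.0256). Shcbp1, a Shc-binding protein of the midbody, read 8.04 and 7.96 on KO replicates 1 and 2, against 7.35 and 6.99 on WT replicates 1 and 2, while KO replicates 3 and 4 read 10.19 and 9.03, against 7.20 and 6.87 on WT replicates 3 and 4 (3.25-fold, SE of log2 0.37, limma adjusted p = 0.0440). All 5 tested cytokinesis genes were separated on both chips, against 10.3% of all genes tested. Kif23, a motor subunit of centralspindlin, read 10.54 and 10.39 on KO replicates 1 and 2, against 10.35 and 8.16 on WT replicates 1 and 2, while KO replicates 3 and 4 read 13.34 and 12.76, against 11.40 and 11.44 on WT replicates 3 and 4 (log2 1.41, SE 0.40, limma adjusted p = 0.0919). The furrow scaffold gene Anln was at 1.33 and the central spindle bundler gene Prc1 at 1.102, and neither passed.

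**Figure D2:**
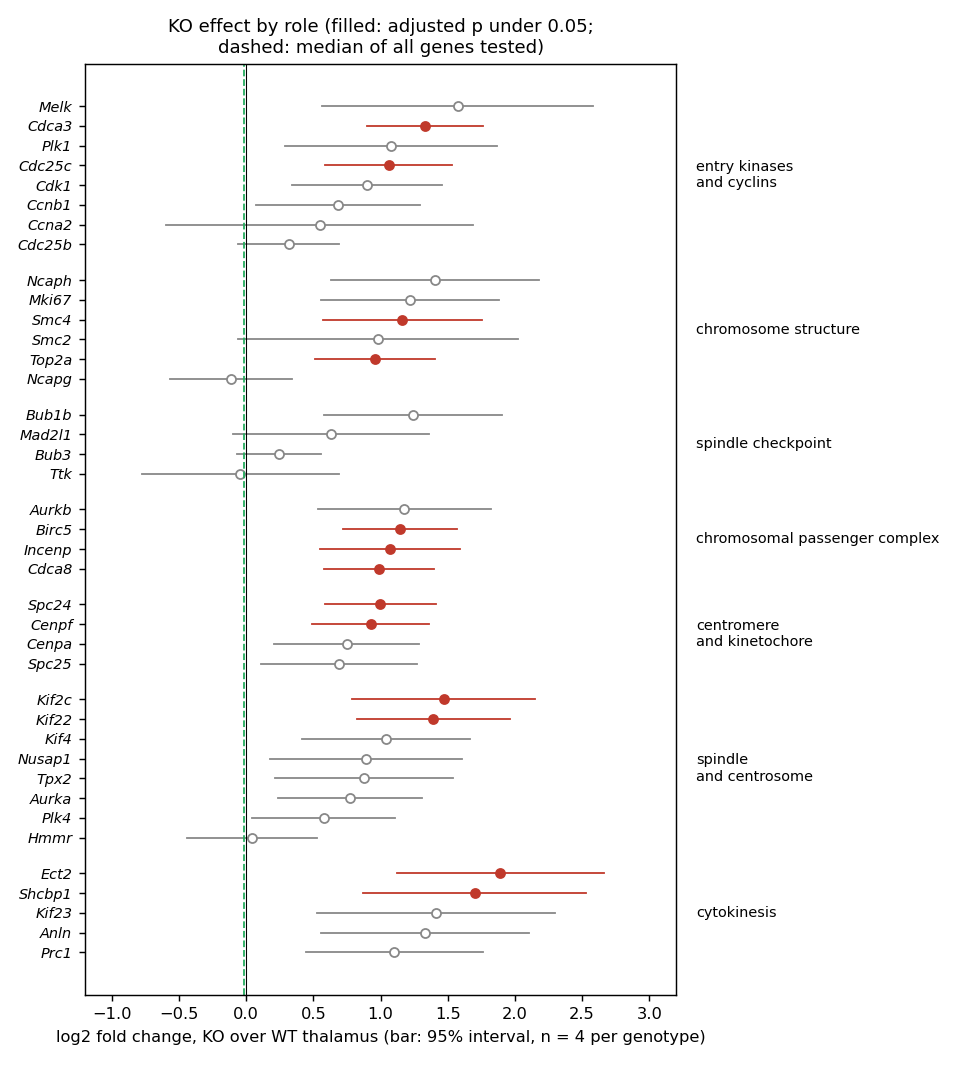
Log2 fold change of KO over WT thalamus (horizontal axis) of the 39 tested members, grouped by role, with 95% intervals from the limma fit (n = 4 arrays per genotype); filled points passed at an adjusted p under 0.05 and the dashed line is the median of all genes tested, -0.02. All but Ncapg and Ttk lie right of 0, and the cytokinesis and chromosomal passenger genes lie at 0.99 or above.

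The difference between genotypes was present on each chip and differed in size. Taken over the 39 tested members, the median of KO minus WT was 0.65 on chip 1 and 1.28 on chip 2, and 37 of 39 members had the larger value on chip 2, against 43.8% of all genes. The test of that difference called 0 of 10396 genes (limma interaction, adjusted p), with 4 of the 39 members and 5.8% of all genes at an unadjusted p under 0.05. On chip 1 both KO arrays lay above both WT arrays for 28 of 39 members (23.6% of all genes), on chip 2 for 35 (22.7%), and on both chips for 27 (10.3%). With the probes of the joint fit, no member was called by limma on either chip alone: 14 members had an unadjusted p under 0.05 on chip 1 and 33 on chip 2.

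**Figure D3:**
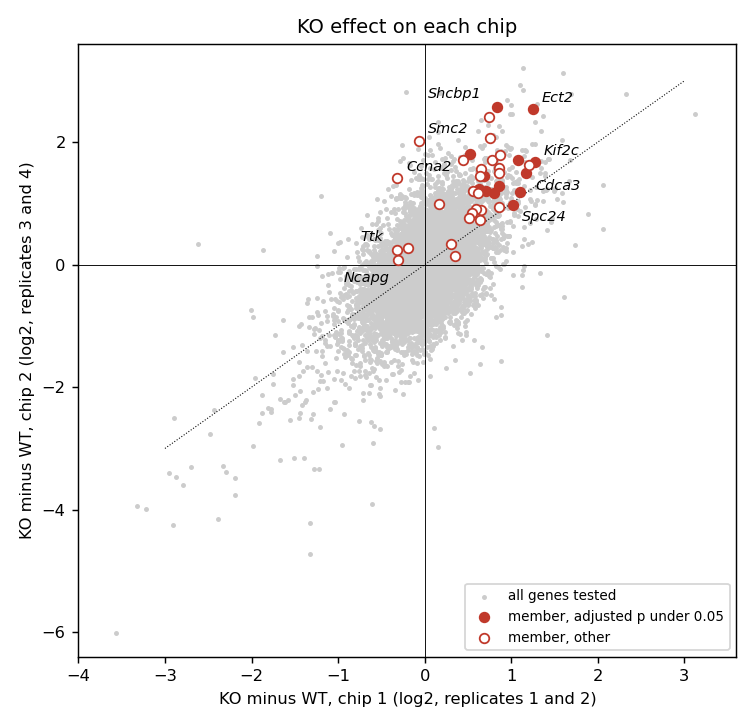
KO minus WT in log2 on chip 2 (vertical axis) against chip 1 (horizontal axis) for all 10396 genes tested (grey) and the 39 tested members (red circles, filled where called in the joint fit). Of the members, 37 lie above the dotted line of equal differences.

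Arrays of 1 genotype differed from each other in the members' level. Relative to the average of the chip's kept WT arrays, the mean of the tested members was 0.62 and 0.62 on KO replicates 1 and 2, against 0.44 and -0.44 on WT replicates 1 and 2, while KO replicates 3 and 4 read 1.66 and 0.93, against 0.01 and -0.01 on WT replicates 3 and 4. WT replicate 1 lay above WT replicate 2 for 38 of 39 members and KO replicate 3 above KO replicate 4 for all 39, against 54.6% and 47.9% of all genes. WT replicate 1 thus stood nearer to the KO arrays of its chip than to WT replicate 2, and it was the array whose omission raised the count of called members to 31. In that fit 3.16% of all genes were called higher.

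The excluded replicate 5 arrays stood in the other order from the kept ones in the members' mean. On KO replicate 5 the mean of the tested members was 0.23, and on WT replicate 5 it was 1.49. KO replicate 5 lay below both KO replicates 3 and 4 for 36 of 39 members (29.2% of all genes), and above both WT replicates 3 and 4 for 27 (33.7%), by 1 or more for 0 (0.539%). WT replicate 5 lay above both WT replicates 3 and 4 for 38 of 39 members (37.4% of all genes), by 1 or more for 33 (5.39%), and above both KO replicates 3 and 4 for 15, a share near that of all genes (34.8%). With these arrays included, the members' median log2 fold change was 0.54.

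**Figure D4:**
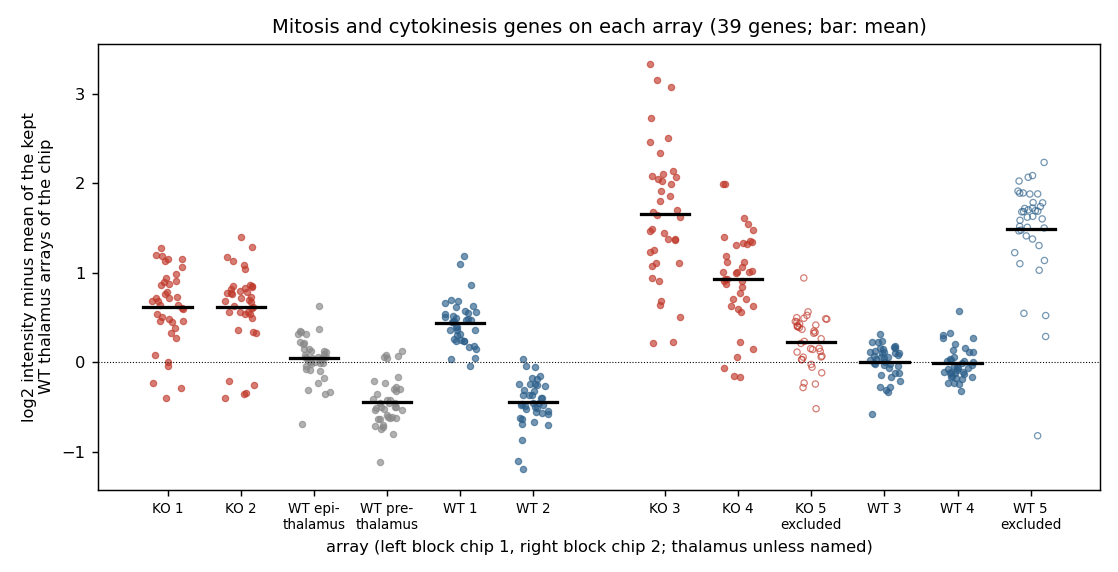
Log2 intensity of each of the 39 tested members minus the average of the chip's kept WT thalamus arrays (vertical axis), for each array (horizontal axis; left block chip 1, right block chip 2); bars are means over the 39 genes and open circles the excluded replicate 5 arrays. The means run from -0.44 on WT prethalamus and WT replicate 2 to 1.66 on KO replicate 3, with excluded WT replicate 5 at 1.49 and excluded KO replicate 5 at 0.23.

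Markers of other cell states were set beside these means. The mean of 9 tested pan-neuronal genes of a list of 12 was between -0.44 (KO replicate 3) and 0.18 (KO replicate 4) on the kept KO arrays, between -0.04 and 0.04 on the kept WT arrays, 0.23 on KO replicate 5 and -1.202 on WT replicate 5. The mean of 8 tested progenitor genes of 12 was between -0.11 and 0.54 on the kept KO arrays, between -0.25 and 0.25 on the kept WT arrays, 0.08 on KO replicate 5 and 0.69 on WT replicate 5. Of these lists, Nefm, a neurofilament subunit, rose by 1.69 and the radial glial glutamate transporter gene Slc1a3 fell by 1.15 (limma adjusted p = 0.0230 and 0.0384), and no other member of these lists passed. Both stood against the balance of their lists: 2 of 9 neuronal genes were positive (median -0.24, against -0.02 over all genes), and 5 of 8 progenitor genes were (median 0.29).

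Genes of prethalamus and GABAergic neurons, 3 tested of 8, averaged -0.99 and -0.48 on KO replicates 1 and 2, against -1.13 and 1.13 on WT replicates 1 and 2, with 4.995 on WT prethalamus and 2.32 on WT epithalamus, so WT replicate 2, the low array in the mitosis genes, was the high thalamus array of chip 1 here. On chip 2 they averaged -1.68 and -0.18 on KO replicates 3 and 4, against -0.17 and 0.17 on WT replicates 3 and 4, and -1.80 on WT replicate 5. The vesicular GABA transporter gene Slc32a1 was at -1.46 (SE 0.63, limma adjusted p = 0.224). Of the 3 tested genes 1 was positive, Isl1 at 0.46, and 0 passed. Tested markers of blood (3 of 6, Hbb-bh1 at -0.49), endothelium (7 of 8, Cldn5 at -0.55), microglia (3 of 6, Csf1r at -0.32), meninges (1 of 6, Twist1 at 0.14) and epithalamus (1 of 8, Wnt3a at -0.01) did not pass. Wnt3a stood at 1.01 on KO replicate 5 and at 3.55 on WT replicate 5, relative to the chip's kept WT arrays, and at -0.24 and 0.74 on KO replicates 3 and 4. The part of these differences in the mitosis values was not tested.

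The neighbouring regions were set beside the WT thalamus arrays of chip 1. Members were compared here if detected on at least 2 of these 4 arrays. They include Ndc80, which had no joint test, leave out Plk4 and Ttk, and use another probe of Ccnb1. Of 38 members compared on chip 1, 0 were 1 or more above both WT thalamus arrays in log2 on the epithalamus array and 0 were 1 or more below, against 0.72% and 0.7% of 9855 genes, and likewise 0 and 0 on the prethalamus array, against 0.903% and 0.964% of genes; shares that small would give under 1 member, so nothing is read from these counts. The epithalamus array lay between the WT thalamus arrays for 30 members (46.2% of all genes), above both for 4 (27.1%) and below both for 4 (26.7%). The prethalamus array lay between them for 25 (42.8% of all genes), below both for 12 (28.4%) and above both for 1 (28.8%), the last being Bub3. Gaps between the WT thalamus arrays were wide, with a median of 0.92 for WT replicate 1 minus WT replicate 2 over these members. Each region has 1 array, so these values have no replicate check.

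The remaining members were tested on chip 2 or not at all. Of the 16 without a joint test, 9 had a chip 2 probe past the filter there, and 7 (Bub1, Ccnb2, Cenpe, Fbxo5, Nek2, Nuf2 and Racgap1) had none. The anaphase promoting complex and sister separation, with 0 of 6 members in the joint test, was measured there. Cdc20, the activator of that complex, had 4 probes, and by its brightest it read 12.96 and 12.81 on KO replicates 3 and 4, against 11.77 and 11.41 on WT replicates 3 and 4. Its probes differed by 1.29 to 1.56 between genotypes, with limma adjusted p values of 0.0827 to 0.103 over the 21369 chip 2 probes tested.

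Separase (Espl1), which cuts cohesin, was at 1.78 on chip 2 and sororin (Cdca5), which protects cohesin, at 1.40. Securin (Pttg1), the inhibitor of separase, and Ube2c, the E2 enzyme of the complex, were detected on both kept KO arrays of chip 2. They were detected on neither kept WT array of that chip, so only a bound is given there. Against the lowest signal of any detected probe on each WT array, Pttg1 was at least 2.29-fold higher in the KO (measured means 6.96 in the KO and 5.14 in WT) and Ube2c at least 2.61-fold higher (7.15 in the KO and 5.66 in WT). Both passed the filter only through the KO arrays, where they are high, so their difference supports nothing. The same Ube2c probe had a KO minus WT of -0.40 on chip 1. It read 5.11 and 5.43 on KO replicates 1 and 2, against 6.65 and 4.68 on WT replicates 1 and 2. The KO arrays of chip 2 lay above the WT arrays for Espl1 and Cdca5, and neither passed the test (limma adjusted p = 0.0657 and 0.0868). The spindle motor gene Kif11 was at 1.64, the kinetochore gene Ndc80 at 1.43 and the cytokinetic kinesin gene Kif20a at 1.42, also without passing.

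Of 81 member probes tested on chip 2 alone, 2 were called, both higher, against 0.117% of all probes there (limma). A probe of Ska3, which tethers kinetochores to microtubules, read 9.23 and 8.93 on KO replicates 3 and 4, against 6.82 and 7.26 on WT replicates 3 and 4 (log2 2.04, SE 0.31, limma adjusted p = 0.0425). A further Bub1b probe, outside the joint test, read 10.45 and 9.90 on KO replicates 3 and 4, against 7.80 and 7.36 on WT replicates 3 and 4 (log2 2.60, SE 0.33, limma adjusted p = 0.0262). Both had no overlap between genotypes. Leaving out an array changed that count to 0 (KO replicate 3 out), 27 (KO replicate 4 out), 19 (WT replicate 3 out) or 7 (WT replicate 4 out); each of these fits has 1 array in an arm, which is assumed to vary as the arrays of the other genotype do. Among the 71 member probes detected on all 4 kept arrays, 67 had both KO arrays above both WT arrays, against 25.8% of all probes so detected.

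Member probes detected on all 4 kept arrays of chip 2 had a larger median difference than those detected on none or 1. The 71 detected on all 4 of these arrays had a median KO minus WT of 1.43, and 55 of them were at 1 or above, against 5.56% of all probes so detected. The 10 detected on 2 to 3 of the 4, some of them on the KO arrays alone, had a median of 1.32. Of these 6 were at 1 or above, against 8.78% of all probes so detected. Those 6 were detected on both KO arrays and on none or 1 of the WT arrays. They passed through the arrays where they are high, so nothing is read from this median or count. The 30 member probes detected on none or 1 of the 4 arrays had a median of 0.18. Of these 0 reached 1, but only 0.184% of all probes so detected did, so nothing is read from that count. Values near 0 from such probes are therefore measured at background.

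**Figure D5:**
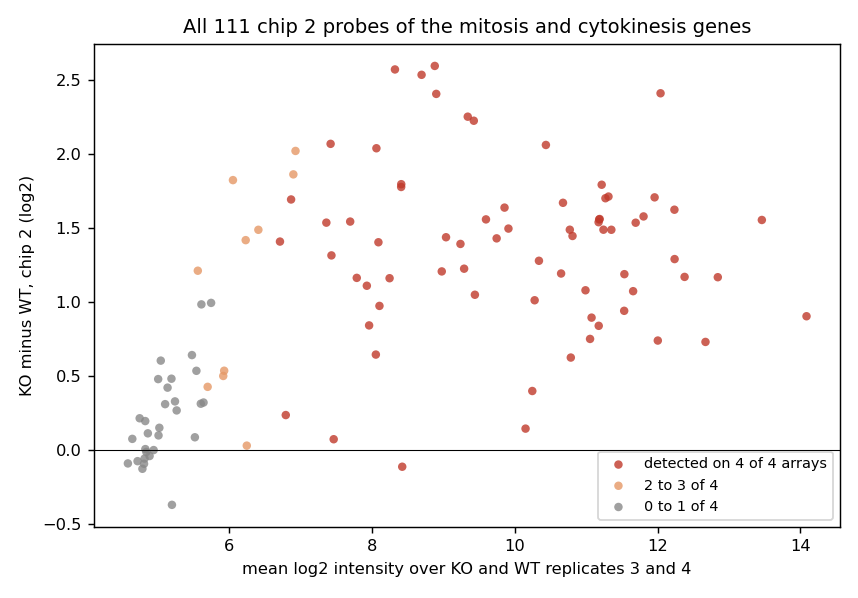
KO minus WT in log2 on chip 2 (vertical axis) against the mean log2 intensity of the probe over KO and WT replicates 3 and 4 (horizontal axis) for all 111 member probes of chip 2, coloured by the number of those arrays on which the probe was detected. Probes detected on 0 to 1 arrays lie at the left and below 1, and the 71 detected on all 4 spread from -0.11 to 2.60.

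Probes of 1 gene disagreed by more than 1 in several members. Ect2 and Shcbp1, the largest rises, and Ncapg are shown with the 50-base probes behind the conflicting values, decoded from the probe identifiers in the deposited tables; no letters are capitalised, since the whole oligo is the item.
Ect2, KO minus WT 1.89, detected on 7 of 8 arrays: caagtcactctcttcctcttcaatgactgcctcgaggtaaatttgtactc
Ect2, KO minus WT 0.01, detected on 0 of 8 arrays: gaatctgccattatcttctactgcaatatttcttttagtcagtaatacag
Shcbp1, KO minus WT 1.701, detected on 8 of 8 arrays: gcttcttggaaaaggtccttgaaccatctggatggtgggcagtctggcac
Shcbp1, KO minus WT 0.26, detected on 5 of 8 arrays: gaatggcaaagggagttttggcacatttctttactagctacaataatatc
Ncapg, KO minus WT -0.12, detected on 8 of 8 arrays: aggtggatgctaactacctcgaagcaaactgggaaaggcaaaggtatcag
Ncapg, KO minus WT 1.30, detected on 6 of 8 arrays: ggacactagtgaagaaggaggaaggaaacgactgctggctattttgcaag

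The second Ect2 probe was above background on no array, so the Ect2 value rests on its other probe. A further Shcbp1 probe, read here on chip 2, was at 0.54 there, where the probe used was at 2.57. A further Ncapg probe, detected on 1 array, was at 0.18. A second joined Kif23 probe was at 0.25, detected on the 4 arrays of chip 2, against 1.41 for the probe used, and a chip 2 probe of Kif23 at 1.497. Anln had further probes at 1.06 and, undetected, at -0.03. On chip 2 another Top2a probe, the brightest, was at 2.41 against 1.21 for the probe used, and another Spc24 probe, detected on all 4 arrays, was at -0.11 against 0.98. Melk, whose probe used was at 2.41 on chip 2, had further probes there at 1.16 and 1.11, all detected on the 4 arrays. Cdc25c, at 1.44 by the probe used, had others at 1.39 and, detected on 1 array, at 0.42. Probes of Espl1 at -0.04, Kif11 at 0.15 and Ndc80 at 0.0085, undetected on chip 2, stood beside the detected probes given above, as did 1 of Nusap1 at 0.08 beside 1.54, 1.54 and 1.17, 1 of Plk4 at -0.01 beside 1.05, and 1 of Mki67 at 0.31 beside 1.69 and 1.58. That Ndc80 probe was detected on 3 of the 8 kept arrays and was at 0.68 on chip 1. There it read 6.05 and 6.88 on KO replicates 1 and 2, against 6.55 and 5.04 on WT replicates 1 and 2. Kif4 had a positive difference by each of its probes, at 1.45, 2.23 and 2.25 on chip 2.

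Other genes of the same processes, listed by function, were set beside the members. Of 97 further mitosis genes 65 were tested, and 9 rose and 0 fell at the threshold (1.4% and 1.48% of all genes), with 59 positive and a median of 0.73. They were the kinetochore genes Cenpm (1.51), Cenpw (1.28) and Cenpl (0.99996), the spindle genes Troap (1.53), Kif18b (1.19) and Nde1 (0.94), Depdc1b of cytokinesis (1.14), the condensin subunit gene Ncapd2 (0.86) and Mybl2 (1.30), which encodes the B-Myb factor that acts on CHR promoters. In the same order the limma adjusted p values were 0.00792, 0.0128, 0.0348, 0.0128, 0.0210, 0.0315, 0.0362, 0.0362 and 0.0423. Cohesin and condensin genes had the lowest median of these lists, 0.41 over 9 tested.

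Genes of DNA replication lay higher as well. Of 35 listed, 22 were tested, and 11 rose and 0 fell, against 1.4% and 1.48% of all genes. All 22 values were positive with a median of 1.07, against 0.999 for the mitosis members. Those with the smallest p were Gins2 and Mcm10, of the replicative helicase and its loading, and Rrm1, of ribonucleotide reductase, at 1.39, 1.95 and 1.76 (limma adjusted p = 0.0192, 0.0238 and 0.0221). Their promoters differed from those of the mitosis genes: 21.9% of 32 replication promoters held a CHR match and 34.4% the E2F letters, against 77.6% and 4.1% of the member promoters. Relative to the chip's kept WT arrays, the mean of the replication genes was 0.85 and 0.79 on KO replicates 1 and 2, against 0.38 and -0.38 on WT replicates 1 and 2, while KO replicates 3 and 4 read 1.75 and 1.02, against 0.05 and -0.05 on WT replicates 3 and 4. It was 0.15 on KO replicate 5 and 1.71 on WT replicate 5, so WT replicate 5 stood above KO replicate 4 in these genes too.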

How the data were processed

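RNA of 12 arrays was hybridised to Illumina bead chips; the number of arrays limits the precision. The authors deposited, per chip, an intensity and a detection value per probe, exported with GenomeStudio 1.1.1 per the file headers of 1 of the tables. The deposited intensity values were used without the authors' normalization. The deposited detection value is a fraction, and 1 minus it was taken as the detection p. The authors' deposited log2 values, whose scaling steps are not given in the sources used here (column medians 7.14 to 7.16), served as an alternative; per the submitters' processing notes BeadStudio, GenomeStudio and lumi were used.

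Each chip's 6 arrays were corrected by normexp with an offset of 16, quantile normalised and put on the log2 scale with limma 3.58.1 in R 4.3.3. Of the 31459 probes that the deposited joined table pairs between chips, 31448 were found in both; 19533 were named by accession, 2780 by current symbol, 2318 by synonym and 6817 kept the file's name. Probes with a detection p under 0.05 on at least 4 of the 8 kept arrays were tested, with the brightest probe taken for each gene. The fit had genotype and chip as terms, and p-values were adjusted by the Benjamini-Hochberg method over all 10396 genes. Chip 2 probes detected on at least 2 of 4 kept arrays were also tested alone. The code was tested on simulated data. Replicate numbers were not used to pair the arrays. Correlations of same-numbered deviations were -0.11 for replicates 1 and 2 and 0.11 for replicates 3 and 4. This is a single value per chip, so it cannot decide whether the numbers pair the arrays.

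The members and the lists were chosen with earlier results of these data known. Values on every array are given for called members and for those with the largest positive and negative change among the others of each role. Of the other pathway lists up to 3 called genes with the smallest p are named, and of marker lists up to 2, or else the gene with the smallest p. Members whose probes differ by over 1 are named with their probes. Alternatives changed the background correction, normalization, filter, probe choice, chips, block and arrays included.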

Additional observations from a re-analysis of the deposited data

Results flagged for a closer look

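Arrays that stood far from the other 3 of their genotype were looked for after centring each gene on the 4 kept arrays of its chip. Of 80 groups of 4 arrays examined, 15 held such an array by Dixon's test, and chance gives about 1 in 20; the genes share arrays, so these are not separate events.

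KO replicate 3 stood far above the other KO arrays for Cdca3 (0.88 above the chip mean), Ect2 (1.81), Kif22 (1.22), Top2a (0.88), Bub1b (1.23), Prc1 (1.32), Kif4 (1.27), Melk (2.13), Cenpa (0.65) and the mean of the tested members (1.01). After that centring, WT replicate 1 stood far above the other WT arrays for Bub1b (0.17 above the chip mean), Mki67 (0.055), Prc1 (0.069), Ccna2 (1.35) and the members' mean (0.13). The values in brackets are distances from the mean of the chip's kept KO and WT arrays, not from the other WT arrays. What sets these arrays apart was not tested.

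WT replicate 5, which the labels exclude, held the tested members at a mean of 1.49 above WT replicates 3 and 4, a level between those of KO replicates 3 (1.66) and 4 (0.93). KO replicate 5 was at 0.23.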

How the results depend on the processing

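The members' median stayed between 0.54 and 1.28 in every alternative, and no member was called lower in any. The count of members called higher, 13 of 300 genes called in all, was less stable. It was 8 of 191 with no background correction, 3 of 280 with median alignment, 21 of 591 with the deposited log2 values, 2 of 84 with no detection filter, 0 of 0 on chip 1 alone, 0 of 45 on chip 2 alone, 0 of 0 with no chip block, and 0 of 15 with replicate 5 included, where the median was 0.54 (by limma; 14, 33, 2 and 2 members had an unadjusted p under 0.05 in these 4). It was 16 with detection on all 8 arrays and 12 with all probes averaged, against 2.33% and 1.42% of all genes called higher. Normalising chip 2 without replicate 5, an alternative chosen after seeing the data, gave 12, against 1.39% of all genes called higher. Leaving out each array in turn gave 1 to 31 members and 63 to 613 genes. Median alignment moved the median of all genes to -0.12, and 25% of its calls were higher, against 48.7% in the reported fit. Whether the replicate numbers pair the arrays is not known here. With the replicate block, 19 members and 377 genes were called, and 59 member probes on chip 2 alone, against 2. Median alignment gave 4 such probes and leaving out each array, with 1 array then in an arm, 0 to 27. For these counts the cause was not tested.

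Signs turned only for members near 0 or split between chips. Hmmr became -0.0058 (median alignment), -0.045 (deposited values), -0.19 (chip 1) and -0.048 (replicate 5 included), and lay between -0.17 and 0.16 when 1 array was left out. Ncapg became 0.59 (deposited values, and all probes averaged), 0.075 (chip 2) and 0.077 (replicate 5 included), and lay between -0.29 and 0.017 when 1 array was left out. Smc2 became -0.063 and Ccna2 -0.32 on chip 1. Ttk became 0.24 on chip 2 and lay between -0.33 and 0.23 when 1 array was left out. Members near background, such as Hmmr, Plk4, Ttk on chip 1 and the probe used for Cdc25b on chip 2, are limited by signal.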

Other observations

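Genes that govern the start of the cycle and its exit had values in both directions. Of 20 listed, 16 were tested, and 2 rose and 0 fell (limma adjusted p), against 1.4% and 1.48% of all genes. Values were positive for 14, with a median of 0.58. Ccnd1, the D-type cyclin that starts the cycle, rose by 1.44 (adjusted p = 0.0345) and E2f1, a transcription factor of the transition into replication, by 1.21 (adjusted p = 0.0256). Negative values were held by the cell cycle inhibitor genes Cdkn1a (-1.01) and Cdkn1c (-0.71), which did not pass (limma adjusted p = 0.0810 and 0.0535) and were named after their values were seen.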
